A study of Homo sapiens with 45 samples.

Results

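In HEK293T cells treated with DMSO, 401 of 17440 CTCF regions held 2 or more summits. These regions are described here by the spacing and strength of their summits, by the partners found at each summit, and by whether they were still listed under treatment. A summit is the position of highest fragment pileup that the authors' peak caller placed in a region. A region was taken as a member when its chromosome, start and end stood on 2 or more lines of the DMSO CTCF list, 1 line for each summit. The other 17039 regions of that list held 1 summit. The 12 lists of the series held 53743 regions in all.

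CTCF is a zinc finger protein that binds DNA at insulators and at the anchors of chromatin loops, where it stops the extrusion of DNA by cohesin. Its long motif has an orientation, and neighbouring CTCF sites can act as separate loop anchors. The NuRD complex, which remodels nucleosomes and removes acetyl groups from histones, holds either MBD2 or MBD3. TET1 is a dioxygenase that oxidises methylated cytosine.

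The series measured genome occupancy by ChIP-seq in HEK293T, a line derived from human embryonic kidney. Cells received the solvent DMSO, 30 µM of the compound BPK25 or 0.5 mM IAA, an auxin, each for 72 h. Chromatin was precipitated with an antibody to CTCF, to MBD2, to MBD3 or to TET1, with 3 libraries for each treatment and antibody and 3 input libraries for each treatment. The labels mention edited derivatives of the line but name no degron or edited protein for any library, and they do not say whether replicates were separate cultures.

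The authors pooled the 3 libraries of a group before they called regions, so each value below comes from 1 list and carries no replicate error. Differences between groups were therefore not tested over samples. Intervals are 95% Wilson intervals for shares and binomial intervals for medians, and cover counting over regions only. All DMSO lists may share the DMSO inputs as their control. Depth per library is unknown, but the pileup at each summit and its local background could be recovered from the deposited fold and −log10 p for 99.8% of the 17945 CTCF summits. The lowest background of a list, called its floor here, was used as a guide to depth, and under BPK25 and IAA it was 5.89% and 21.6% of the DMSO value for CTCF.

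Most of the 401 regions held a pair of summits. There were 331 with 2 summits (82.5%, 78.5 to 85.95), 46 with 3, 20 with 4, 2 with 6 and 2 with 7. Their median width was 575 bp (interval 542 to 605), from 239 to 2367 bp, against 250 bp for regions with 1 summit. Members made up 0.0750% of regions up to 300 bp wide, 14.0% of those over 400 and up to 500 bp, and 93.0% of those over 1000 bp. Width and number of summits come from the same list that chose the members, so these values describe the rule and carry no test. Other lists also held such regions. In DMSO the share of such regions was 2.12% in the MBD2 list, 2.80% in the MBD3 list and 3.34% in the TET1 list, against 2.299% in the CTCF list.

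Neighbouring summits mostly lay farther apart than a region with 1 summit is wide. Over 505 neighbouring pairs the median spacing was 291 bp (276 to 301), with quartiles of 225 and 360 bp and a range from 27 to 925 bp. Of these pairs, 65.9% (61.7 to 69.9) were at least 200 and under 400 bp apart, 17.6% were 400 bp or more apart, and 13 pairs (2.57%) were under 100 bp apart. Regions with 2 summits had a median spacing of 282 bp, and those with 3 or more had 307 bp. Fragments were selected on a gel from 200 to 500 bp per the labels' protocols. That range covers most of the spacings, and its part in them was not tested.

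**Figure D1:**
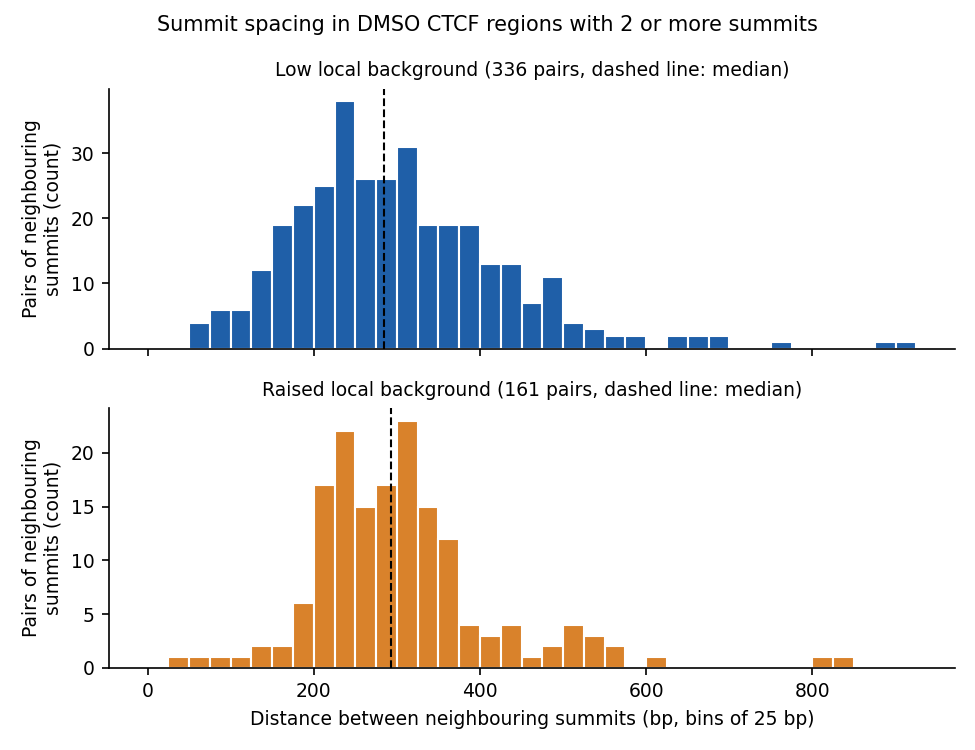
Histograms of the distance in bp between neighbouring summits (x axis, bins of 25 bp) against the number of pairs (y axis), for members of low (top, 336 pairs) and raised (bottom, 161 pairs) local background, with dashed lines at the medians. The medians are close (284 and 293 bp), and fewer pairs lie under 200 bp at raised background (8.70%) than at low background (20.5%).

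Summits of a region were of similar strength in many members. The stronger summit, that of highest fold enrichment, had a median fold of 3.49 (3.34 to 3.71), and the weaker one, that of lowest fold, had 2.65 (2.55 to 2.72). Fold enrichment is the authors' linear ratio of pileup to local background. The weaker summit reached a median of 0.789 of the stronger fold (0.763 to 0.813). It had at least 90% of the stronger fold in 107 members (26.7%), and at most 0.5 of it in 34 (8.48%). Recovered pileups had a median of 42 fragments at stronger and 30 at weaker summits. The weaker summit had a −log10 q of 5 or more in 154 members (38.4%), so many of the secondary summits were modest calls. In the 331 regions with 2 summits, the stronger one was at the lower coordinate in 137 (41.4%, 36.2 to 46.8). Weaker summits lay within 50 bp of a region edge in 41 members and stronger ones in 19.

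The members split into regions of ordinary and of raised local background. The background was over 3 times the floor of the list at the summit of largest −log10 p in 131 members (32.7%, 28.3 to 37.4), against 9.91% (9.47 to 10.4) of regions with 1 summit. It was at most 3 times the floor in 262 members and was not recovered in 8. The median fold was 3.99 (3.79 to 4.19) at low background and 1.99 (1.86 to 2.24) at raised background, while the median pileups were 33 and 192 fragments. Members of raised background thus had many fragments over a high control level. The median spacings were 284 bp (266 to 301) and 293 bp (268 to 307). Pairs 200 to under 400 bp apart made up 60.4% (55.1 to 65.5) at low and 77.6% (70.6 to 83.4) at raised background, so the spacings were less spread at raised background.

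Some members of raised background, 55 of 131, lay in a few dense stretches. With members joined when at most 50 kb apart, a distance chosen after seeing the data, 62 members (15.5%) fell in 7 stretches of 4 or more, and 55 of these 62 had raised background. The largest stretch was on the contig 9_gl000199_random, with 18 members from 54548 to 160975 (hg19) and a median background of 246 fragments. Members made up 18 of the 69 CTCF regions on that contig (26.1%). Other stretches lay on chromosome 16 from 46390932 to 46433182 (10 members), chromosome 2 from 92229592 to 92324649 (10 members), chromosome X from 61683069 to 61734201 (9 members) and from 58568260 to 58581111 (5 members), and chromosome 10 from 42533430 to 42540045 (5 members). Their median folds were between 1.68 and 1.75. A last stretch differed from these. On chromosome X from 73037870 to 73069465, 5 members with 18 summits had a median fold of 3.47 and a median background of 8.25 fragments, and none of the 5 had raised background. Chromosome X held 8.73% of members and 4.16% of regions with 1 summit. In total 24 members (5.99%) lay off chromosomes 1 to 22 and X, against 0.9625% of the others.

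The members with most summits were wide and of moderate fold. On chromosome 7 from 26226369 to 26228735, 7 CTCF summits had folds between 2.67 at the first and 3.78 at the last. Their gaps were 387, 232, 343, 218, 169 and 200 bp, and their pileups were between 21 and 37 fragments, so no single summit stood out. The widest overlapping region had 3 summits in the MBD2 list, 4 in the MBD3 list and 5 in the TET1 list. The BPK25 lists of MBD2 and TET1 still named it, with folds up to 6.04 and 5.80. On chromosome 2 from 85772411 to 85774418, 7 summits had folds between 2.61 and 4.01, with gaps from 193 to 429 bp. There MBD2 had 4 summits and MBD3 and TET1 had 5 each, and a CTCF region of fold 4.19 with 9 fragments was listed under IAA.

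The members of highest fold were unlike each other. On chromosome 15 from 102519417 to 102520036, a summit of fold 24.96 stood 378 bp from one of fold 2.67 with 29 fragments. The MBD2 and MBD3 lists had both of these summits, with folds of 16.7 and 2.49 in the former and 15.4 and 2.37 in the latter. TET1 had only the stronger, at 12.6-fold. On chromosome 7 from 302891 to 304064, 4 summits had folds of 14.4, 11.7, 13.4 and 7.29 and pileups of 76, 106, 118 and 38 fragments. MBD3 had a summit within 11 bp of each of these 4. MBD2 had 3 summits, with folds of 12.4, 15.1 and 15.2, and lacked the last. TET1 had the 2 middle summits, with folds of 8.12 and 8.33.

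Spacing at the extremes also varied. Among members with exactly 2 summits, those farthest apart were separated by 883 bp on chromosome 19 from 49995322 to 49996597, with folds of 2.53 and 3.72. Next came a region on chromosome 1 from 17222412 to 17223651, with folds of 5.69 and 2.29 at 825 bp. The closest pairs among members of 2 summits on chromosomes 1 to 22 and X with a −log10 q of 5 or more were 61 bp apart on chromosome 6 from 153290925 to 153291574 (folds 3.31 and 3.17) and 80 bp apart on chromosome 17 from 39848214 to 39848869 (folds 2.71 and 2.87). Just outside the rule, the widest regions with 1 summit measured 1201 bp on chromosome 13 from 45907244 to 45908444 (fold 3.56) and 1088 bp on chromosome 14 from 35015766 to 35016853 (fold 8.55). At the former, MBD2 and MBD3 had 4 summits each.

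Partners were listed at most members. MBD2 regions overlapped 313 of 401 members (78.1%, 73.8 to 81.8), where 67.4% of all 17440 CTCF regions had one. MBD3 overlapped 306 (76.3%, 71.9 to 80.2), against 46.4% of all CTCF regions. TET1 overlapped 262 (65.3%, 60.6 to 69.8), against 33.9%. All 3 partners were found at 219 members (54.6%, 49.7 to 59.4; 23% of all CTCF regions) and none at 40 (9.98%, 7.41 to 13.3; 23.4% of all). Set against regions with 1 summit, the share of members was higher by 10.95 percentage points for MBD2 (6.59 to 14.8), by 30.6 for MBD3 (26.1 to 34.5) and by 32.2 for TET1 (27.4 to 36.7). These intervals exclude 0, but no test over samples was possible.

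Combinations of partners differed in the same way. MBD2 was the only partner at 6.73% (4.67 to 9.62) of members and 21.3% (20.7 to 21.9) of regions with 1 summit. MBD3 was the only partner at 6.98% (4.88 to 9.91) and 5.35% (5.02 to 5.70), where the intervals overlap. Among members of raised background, MBD2 alone was found at 2 of 131 (1.53%) and MBD3 alone at 12 (9.16%), against 20.8% and 5.81% of the 1688 regions with 1 summit in that class. In that class the MBD2 share was 73.3% for members and 76.9% for regions with 1 summit, a difference of −3.61 points (−12.0 to 3.53), while the MBD3 shares were 87.0% and 57.9%. At low background, MBD2 was found at 79.8% of members, MBD3 at 70.2% and TET1 at 63.0%, against 66.0%, 44.3% and 32.0% of regions with 1 summit.

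Partner shares grew with the number of summits. All 3 partners were found at 48.6% (43.3 to 54.0) of members with 2 summits, 76.1% (62.1 to 86.1) of those with 3 and 23 of 24 with 4 or more. In both kinds of region the shares with MBD2, with MBD3 and with TET1 also mostly grew with width. Regions with 1 summit were few in the widest classes, with 8 over 800 and up to 1000 bp and 4 over 1000 bp. Within each class of width, the intervals of members and of regions with 1 summit overlapped for MBD3 and for TET1, and up to 400 bp members had MBD2 less often. Over 300 and up to 400 bp, MBD2 was found at 24 of 47 members (51.1%) and 79.4% of 2985 regions with 1 summit. Over 400 and up to 500 bp, the MBD2 shares were 71.9% and 81.7%, the MBD3 shares 66.3% and 68.1%, and the TET1 shares 56.2% and 57.0%. Over 500 and up to 600 bp, the MBD3 shares were 80.6% and 73.2%. Within classes of fold, members stood above. These classes were not matched for width or background, and members were wider and more often of raised background. In the lowest quartile of CTCF fold, up to 3.51, which held 203 members, MBD3 was found at 72.4% of members and 26.6% of regions with 1 summit. In the highest quartile, from 5.29, it was found at 89.6% of 67 members and 70.35% of regions with 1 summit.

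**Figure D2:**
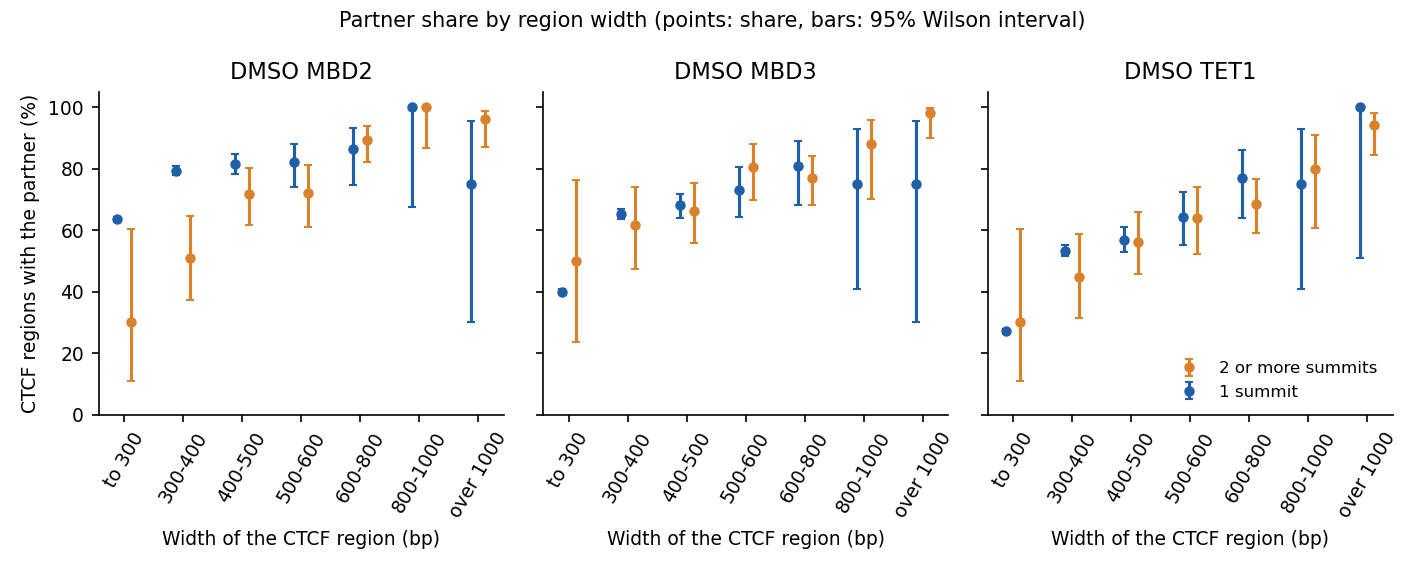
Share of DMSO CTCF regions that overlap an MBD2, MBD3 or TET1 region (y axis, %) by width of the CTCF region in bp (x axis), for members (orange) and regions with 1 summit (blue), with 95% Wilson intervals. Shares mostly grow with width in both kinds of region, and from 300 to 400 bp members have MBD2 less often (51.1% against 79.4%).

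Partners were also counted at single summits, by distance between summits in place of overlap of regions. These shares were not split by width. A partner summit within 100 bp was taken as shared, which for MBD2 held for 65.4% of all 17945 CTCF summits, for MBD3 for 45.4% and for TET1 for 32.7%. Stronger summits of members had an MBD2 summit in 254 of 401 cases (63.3%, 58.5 to 67.9), and weaker ones in 163 (40.65%, 35.95 to 45.5). Summits of regions with 1 summit had one in 66.1% (65.4 to 66.8). For MBD3 the shares were 60.35% (55.5 to 65.0) at stronger, 41.65% (36.9 to 46.5) at weaker and 45.0% at lone summits. For TET1 they were 48.9% (44.0 to 53.8), 31.4% (27.1 to 36.1) and 32.2%. Over all members at this distance, the interval of stronger summits includes the share of lone summits for MBD2 and lies above it for MBD3 and TET1. That of weaker summits lies below it for MBD2 and includes it for MBD3 and TET1. Within 50 bp, stronger summits had MBD2 less often than lone ones (54.6%, 49.7 to 59.4, against 63.9%), and weaker summits had MBD3 (34.7% against 43.5%) and TET1 (25.2% against 30.4%) less often. Where a partner summit lay within 200 bp, its median distance was 15 bp at stronger and 27 bp at weaker summits for MBD2. It was 12 and 21.5 bp in the case of MBD3, and 18 and 31 bp in that of TET1.

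Stronger and weaker summits were also compared within each class of background. At low background an MBD2 summit was found at 64.5% of stronger and 36.3% of weaker summits, an MBD3 summit at 53.05% and 32.4%, and a TET1 summit at 46.95% and 24.8%. At raised background the MBD2 shares were 58.8% and 46.6%, and the MBD3 shares 72.5% and 58.0%. Those of TET1 were 49.6% and 42.75%, and the intervals overlapped for each partner. Both summits belong to the same members, so overlap of these intervals does not judge the difference. Lone summits of low background had MBD2 in 65.0%, MBD3 in 43.55% and TET1 in 31.1%, so weaker summits lay below them for each partner there. Lone summits of raised background had MBD2 in 76.4%, above the interval of stronger summits (50.2 to 66.8), MBD3 in 57.4% and TET1 in 41.7%. Whether the difference between stronger and weaker summits depends on background was not tested. No partner had a summit within 100 bp of the weaker summit in 161 members (40.15%), and all 3 had one there in 70 (17.5%). No partner was found at 20.7% of stronger and 24.8% of lone summits, and all 3 at 35.4% and 21.6%.

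**Figure D3:**
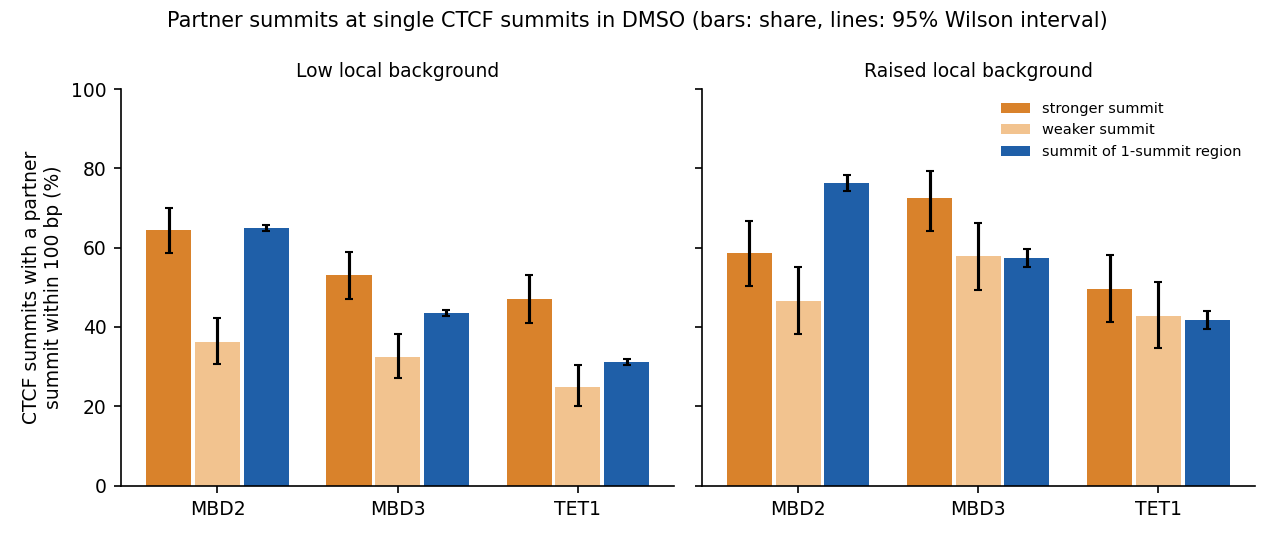
Share of CTCF summits in DMSO with a partner summit within 100 bp (y axis, %) for MBD2, MBD3 and TET1 (x axis), at stronger summits (dark orange), weaker summits (light orange) and summits of 1-summit regions (blue), with 95% Wilson intervals, for low (left) and raised (right) local background. At low background the weaker summits are lowest for each partner, with 36.3% for MBD2 against 64.5% at stronger summits.

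When a partner region overlapped a member, its summits often repeated the pattern. MBD2 had 1 region with 2 or more summits at 154 of the 313 members it overlapped, 1 summit at 140 and separate regions at 19. For MBD3 these counts were 145, 146 and 15 of 306 members, and for TET1 they were 103, 141 and 18 of 262. In 67 members (16.7%, 13.4 to 20.7) all 3 partners had a region with 2 or more summits, and in 178 (44.4%) none had. Seen from the partner lists, 161 of 339 MBD2 regions with 2 or more summits (47.5%) lay at members, as did 170 of 15652 with 1 summit (1.09%). For MBD3 it was 154 of 284 (54.2%), and for TET1 113 of 241 (46.9%).

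Where a partner marked only the stronger or only the weaker summit, it was mostly the stronger. MBD2 marked the stronger alone in 130 members and the weaker alone in 39, so that 76.9% (70.0 to 82.6) of such cases were at the stronger. MBD3 gave 123 and 48 (71.9%, 64.8 to 78.1) and TET1 113 and 43 (72.4%, 64.95 to 78.8). Where both summits had a separate partner summit with recovered pileups, the summit with more CTCF fragments also had more MBD2 fragments in 86 of 109 members, more MBD3 fragments in 84 of 109 and more TET1 fragments in 56 of 75. Over both classes of background together, the summits that were high for CTCF were thus mostly high for the partners. For each partner, most members with the opposite order were of low background. The order was kept less often at low than at raised background, so the pooled counts overstate it for members of low background. The balance was flatter in the partners, with a median log2 pileup ratio of 0.40 for CTCF beside 0.22 in the MBD2 list, 0.39 beside 0.285 in the MBD3 list, and 0.31 beside 0.16 in the TET1 list. Members were ordered by their CTCF fold, which by itself raises the CTCF ratio.

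**Figure D4:**
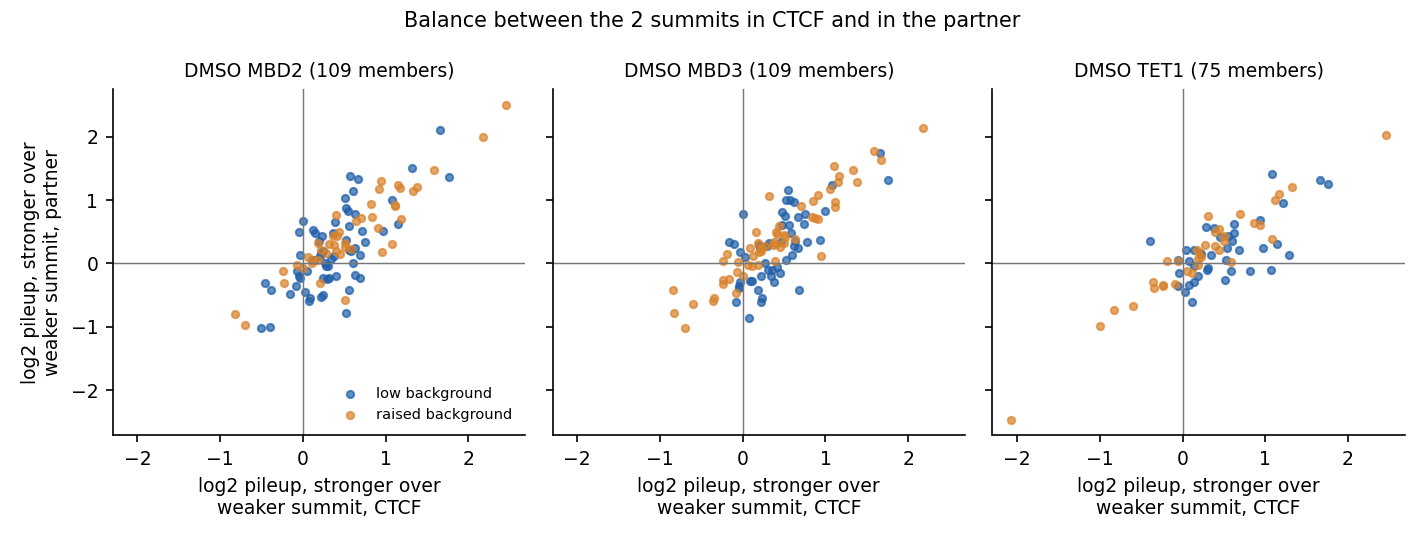
Each point is 1 member. The x axis is the log2 ratio of CTCF pileup at the stronger over the weaker summit in DMSO, and the y axis is the same ratio for MBD2 (left, 109 members), MBD3 (middle, 109) or TET1 (right, 75), coloured by low (blue) or raised (orange) local background. Most points lie in the upper right, where the summit high for CTCF is also high for the partner.

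Both summits had all 3 partners within 100 bp in 41 members (10.2%). The one of highest fold lay on chromosome 1 from 149513748 to 149514198, where CTCF folds of 8.21 and 6.17 stood 244 bp apart. The folds at the same 2 summits were 7.82 and 7.55 in the MBD2 list, 9.25 and 6.82 in the MBD3 list, and 6.34 and 7.78 in the TET1 list, so that TET1 alone was higher at the second summit. A region on chromosome 17 from 72206360 to 72207573 had CTCF folds of 7.69 and 3.43 at a spacing of 565 bp, MBD2 folds of 10.1 and 2.95 and MBD3 folds of 8.06 and 3.28. TET1 was listed there as separate regions with folds of 4.61 and 2.82. Of members without a partner, the highest fold was 4.63, on chromosome 1 from 202312835 to 202313194, beside a summit of 3.07. The next was 4.46, found on chromosome 19 from 1671983 to 1672581, beside one of 4.30. Pileups there were between 17 and 28 fragments.

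Under treatment, most members were no longer listed for CTCF. Under BPK25, 53 of 401 members (13.2%, 10.3 to 16.9) overlapped a CTCF region, against 1.27% of all CTCF regions and 0.992% (0.854 to 1.15) of those with 1 summit. Under IAA, 50 members (12.5%, 9.59 to 16.1) did, against 0.952% of all and 0.681% (0.568 to 0.816) of those with 1 summit. Members were 23.9% of the 222 DMSO CTCF regions listed under BPK25 and 30.1% of the 166 listed under IAA, while they were 2.299% of the DMSO list. Both treated CTCF lists named 23 members (5.74%) and 0.329% of regions with 1 summit. No treated list of any antibody named 261 members (65.1%), against 94.99% of regions with 1 summit. All 8 named 9 members (2.24%) and 0.0528% of regions with 1 summit. Within classes of width the order differed. Over 300 and up to 400 bp, CTCF under BPK25 was listed at 10.6% of members and 2.18% of regions with 1 summit. Under IAA these shares were 17.0% and 1.37%. Over 500 and up to 600 bp they were 18.1% and 2.68% under BPK25. Over 600 and up to 800 bp they were 10.5% and 13.5% under BPK25, and 12.4% and 17.3% under IAA, with overlapping intervals.

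The members still listed were mainly those of raised background. Of the 53 under BPK25, 40 had raised background, and their median DMSO background was 229 fragments, against 9.06 for members not listed. Of the 50 under IAA, 38 had raised background, with a median of 337 fragments. At low background, 8 of 262 members (3.05%) had a CTCF region under BPK25 and 5 (1.91%) under IAA, against 0.261% and 0.235% of regions with 1 summit. The differences were 2.79 points (1.29 to 5.65) and 1.67 points (0.579 to 4.16). At raised background the shares were 30.5% and 6.93% under BPK25 and 29.0% and 3.79% under IAA.

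The other antibodies under treatment gave a like order. In BPK25 lists, members had an MBD2 region in 78 cases (19.5%; 1.42% of all CTCF regions), an MBD3 region in 54 (13.5%; 1.1% of all) and a TET1 region in 71 (17.7%; 3.84% of all). In IAA lists they had an MBD2 region in 45 cases (11.2%; 0.631% of all), an MBD3 region in 31 (7.73%; 0.442% of all) and a TET1 region in 31 (7.73%; 0.459% of all). At low background, MBD2, MBD3 and TET1 under BPK25 were found at 11.5%, 1.91% and 11.8% of members. Regions with 1 summit there had 0.581%, 0.189% and 2.81%. These shares are of all regions of that class, with or without the partner in DMSO. The floors of the BPK25 lists were 49.5% of the DMSO value for MBD2, 7.92% for MBD3, 20.4% for TET1 and 5.89% for CTCF. Shares of different antibodies therefore do not compare. By width, TET1 under BPK25 was at 12.8% of members and 6.43% of regions with 1 summit over 300 and up to 400 bp. Over 500 and up to 600 bp the order was reversed (6.94% and 21.4%), as over 600 and up to 800 bp (17.1% and 32.7%). Under IAA, MBD2 was found at 0 of the 262 members of low background, which allows a share of up to 1.145% by the limit of 3 counts for a count of 0 (95% Wilson limit 1.445%).

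**Figure D5:**
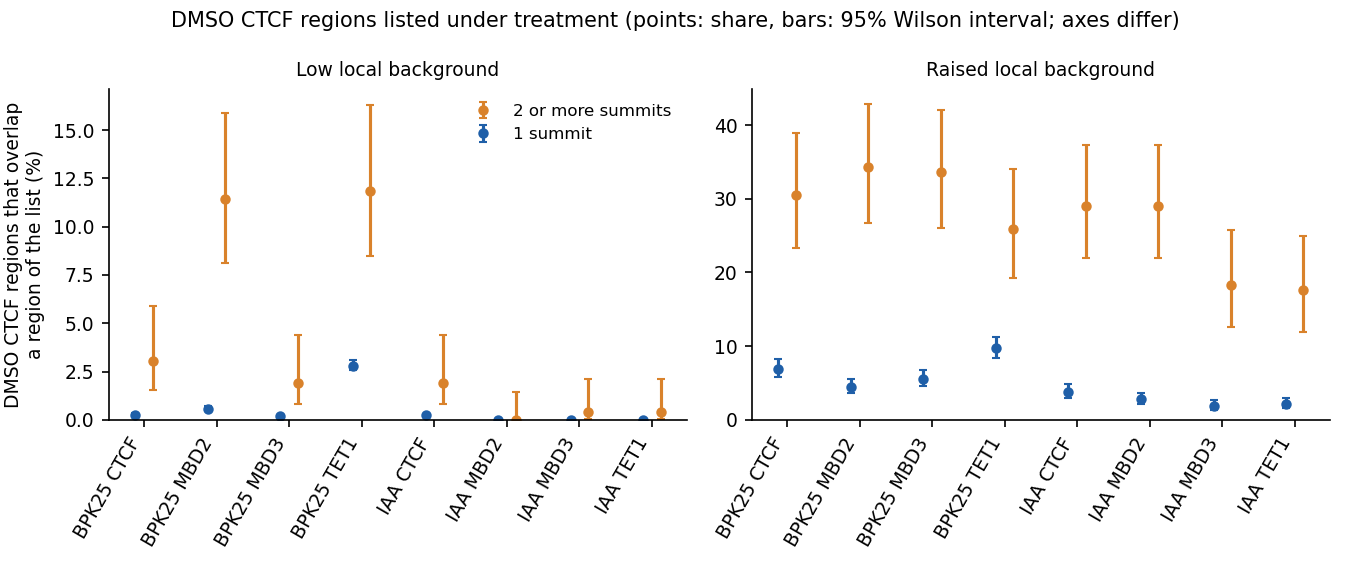
Share of DMSO CTCF regions that overlap a region of each of the 8 treated lists (y axis, %, scales differ between panels), for members (orange) and regions with 1 summit (blue), with 95% Wilson intervals, at low (left) and raised (right) local background. Members lie above regions with 1 summit in the 4 BPK25 lists in both panels, while at low background MBD2, MBD3 and TET1 under IAA are at 0 or 0.382% of members.

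In both kinds of region, CTCF was most often listed under treatment where all 3 partners were found. Under BPK25, CTCF was listed at 1 of 40 members without a partner, 4 of 60 with 1, 7 of 82 with 2 and 41 of 219 with all 3 (18.7%, 14.1 to 24.4). Among regions with 1 summit and all 3 partners, it was 2.92% (2.43 to 3.51). With 0, 1 and 2 partners, regions with 1 summit gave 0.371%, 0.448% and 0.490%, with overlapping intervals. Under IAA, the members gave 0 of 40, 1 of 60, 3 of 82 and 46 of 219 (21.0%, 16.1 to 26.9), and regions with 1 summit and all 3 partners gave 2.265%. Regions of raised background were also more often listed, and their part in this order was not tested.

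Judged by the floor of its CTCF list, low depth may have limited what could be seen under BPK25. Scaled by that floor, the median pileup of members not listed there was 2.296 fragments, below the smallest pileup in the list, 5. Only 5 of the 262 members of low background reached 5 fragments after this scaling, and 2 of these were listed. The other 257 stayed below it, yet 6 of them were listed, so the floor is only a rough guide to depth. By this guide a loss could not be judged at the rest of the 257. Under IAA, 96 of the 262 members of low background reached that list's smallest pileup of 8 fragments after scaling, and 2 were listed (2.08%, 0.573 to 7.28). Of regions with 1 summit that reached it at low background, 30 of 7272 (0.413%, 0.289 to 0.588) were listed.

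In most listed members a treated summit lay at a DMSO summit. Under BPK25, the 53 members had CTCF summits within 100 bp of both the stronger and the weaker summit in 23 cases, of the stronger alone in 19, of the weaker alone in 6 and of neither in 5. Under IAA the counts were 20, 17, 10 and 3 of 50. In 15 of 21 members with both summits and recovered pileups under BPK25, and 14 of 15 under IAA, the order of the pileups was as in DMSO. All of these 21 and 15 members had raised background, so members of low background do not enter these counts. At stronger summits, CTCF pileup under BPK25 was a median of 13.3% of that in DMSO (quartiles 10.8% and 16.1%), where the lowest background of the list was 5.89%. Under IAA it was 24.9% (21.9% and 26.9%), where the lowest background was 21.6%. These medians cover only summits that were listed, which had to exceed the background.

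The members of highest fold under treatment differed in which summits were listed. On chromosome 1 from 236876997 to 236878144, 2 CTCF summits with DMSO folds of 2.52 and 2.92 and backgrounds of 36.2 and 33.6 fragments had folds of 12.4 and 8.69 under BPK25, from 26 and 18 fragments. The higher fold was thus at the other summit, and folds of lists of different depth do not compare. At the 4-summit region of chromosome 7 from 302891, BPK25 CTCF had a single summit of fold 11.5, 5 bp from the third DMSO summit, while BPK25 TET1 had the 2 middle summits with folds of 10.1 and 9.14. For CTCF under IAA, the highest fold was 9.62, on chromosome 12 from 6647077 to 6647821. The next was 8.66, found on chromosome 17 from 19091178 to 19091921. The former lay 75 bp from the DMSO summit of fold 3.40, and the IAA region ended before the other DMSO summit, of fold 3.18. The latter lay at the stronger of 2 DMSO summits, of folds 12.3 and 3.98.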

How the data were processed

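ChIP-seq was made from 45 libraries, and the authors deposited 12 region lists, each, per the labels, from 3 pooled libraries. Per the submitters' processing notes, Bowtie2 2.3.4, SAMtools 1.9, MACS2 2.1.2 and build hg19 were used, and the settings of the caller are not stated there. The deposited lists hold fold enrichment as a linear ratio, the −log10 of p and q, a display score (not used) and the summit offset. Lines with the same start and end were joined to 1 region. Lists were compared by overlap of 1 bp or more, and summits by distances up to 100 bp. Pileup and local background were solved from fold, read as pileup plus 1 over background plus 1, and −log10 p, read as a Poisson upper tail, within 0.02% and up to a −log10 p of 150. The floor is the lowest background of a list. Intervals are at 95%. Scripts were tested on simulated data, with SciPy 1.17.1, pandas 2.3.3 and numpy 2.4.6 under Python 3.11.15. Members, rules and comparisons were chosen with earlier results of these data known. Named regions (chromosomes 1 to 22 and X, −log10 q of 5 or more) are the 2 members with most summits, of highest fold, of widest and of narrowest spacing, of highest CTCF fold under BPK25 and under IAA, of highest fold with all 3 partners at both summits and with no partner, and the 2 widest regions with 1 summit. Read counts per library, sequences and gene annotation of hg19 were not used here.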

Additional observations from a re-analysis of the deposited data

How the results depend on the processing

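Over 23 results and 117 alternative values, 77 moved by less than their interval and 40 moved further. No paired analysis was possible because each list pools its 3 replicates, and for the same reason no replicate could be left out. The planned search for motifs was not run, since no hg19 genome was used here. Restriction to low background and the order of pileups were chosen after seeing the data. With a −log10 q of 5 or more in every list, the ratio of weaker to stronger fold was 0.751, and MBD2 was at 72.8% of members, MBD3 at 65.97%, TET1 at 51.9%, all 3 partners at 42.4% and none at 15.2%. Regions with 1 summit then had 69.5% for MBD2, 29.75% for TET1, 20.99% for all 3 and 0.740% for CTCF under BPK25. At low background, members had 70.2% for MBD3, 3.05% for CTCF under BPK25 and 1.91% under IAA. Regions with 1 summit there had MBD2 in 66.01%, MBD3 in 44.3%, TET1 in 32.03%, 20.9% for all 3, 24.8% for none, and 0.261% and 0.235% for CTCF under BPK25 and IAA. MBD3 was at 53.05% of stronger and 32.4% of weaker summits there, and TET1 at 24.8% of weaker ones. On chromosomes 1 to 22 and X, CTCF under BPK25 was listed at 10.1% of members and 0.670% of regions with 1 summit, and under IAA at 0.533% of the latter. Members with exactly 2 summits had TET1 in 60.1% and all 3 partners in 48.6%. With partner summits within 150 bp in place of overlap, 24.4% of regions with 1 summit had none. With summits shared within 50 bp, MBD2 was at 54.6% of stronger and 33.4% of weaker summits, MBD3 at 54.4% and 34.7%, and TET1 at 43.9% and 25.2%. Within 200 bp, the stronger had 68.6% for MBD2 and 54.1% for TET1, and the weaker 50.9%, 49.4% and 38.4% for MBD2, MBD3 and TET1. In each of these alternatives that gave both values, members stayed above regions with 1 summit for MBD2, MBD3, TET1 and CTCF under treatment. They stayed below them for no partner, and stronger summits stayed above weaker ones. This is the direction only. With a −log10 q of 5 or more the MBD2 shares were close (72.8% and 69.5%), and no interval of that difference was computed. Raised background and classes of width were not among these alternatives, and the order did not always hold there. At raised background MBD2 was at 73.3% of members and 76.9% of regions with 1 summit. Over 400 and up to 500 bp it was at 71.9% and 81.7%, and over 600 and up to 800 bp at 89.5% and 86.5%. In this last class CTCF under BPK25 was at 10.5% and 13.5%. The cause of these differences was not tested. Pooled lists give no replicate error. The low floor of the BPK25 CTCF list, 5.89% of the DMSO value, limits what can be said of members no longer listed for CTCF.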
